A study of Mus musculus with 24 samples.

Results

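The probes described here belong to the proteasome subunits outside the immunoproteasome. They are all array probes whose annotated symbol begins with Psma, Psmb, Psmc, Psmd, Psme, Psmf or Psmg, without Psmb6, Psmb8, Psmb9 and Psmb10. The rule found 79 of the 45281 probes, which stand for 45 genes on 16 chromosomes, and no probe annotated as Psmf1. Messenger RNA was measured on 24 single-colour Illumina mouse bead arrays, with total RNA from bone marrow of DBA2 (D2) and C57Bl/6 (B6) mice. Each strain gave 4 cell types with 3 arrays each. These were Ter119+ erythroid cells, Gr1+ myeloid cells, L-S-K+ committed progenitors and multilineage LSK cells. The last 2 lack the lineage markers and carry Kit, and only LSK cells carry Sca-1. The labels name no treatment, no engineered allele and no age, and do not say whether the 3 arrays of a group came from separate animals. Errors and p-values therefore measure the spread between these arrays, which may be technical.

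The proteasome is the protease complex that degrades proteins tagged with ubiquitin. Its barrel, the 20S core, is a stack of alpha and beta rings, and the cutting sites lie on the beta subunits inside. The 19S cap recognises the ubiquitin tag, removes it (the lid) and threads the unfolded protein into the barrel (the base with its ring of ATPases). Other caps, the activators encoded by the Psme genes, open the barrel without ubiquitin recognition. In the immunoproteasome the catalytic beta subunits are exchanged for interferon-induced ones. Blood progenitors that divide and make protein fast use the complex for protein quality control, and maturing red cells use it while they clear much of their content.

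Levels are log2 intensities after background correction and quantile normalization, and a difference is on the same log2 scale. A level is comparable between arrays for 1 probe, not between probes. A probe was kept if some group had it detected (detection p under 0.01) on each of its 3 arrays, which left 53 of the 79 probes, for 35 genes. Of these, 37 were detected on all 24 arrays. Of the 26 others, 21 were detected on no array and 5 on 1 array. They include every probe of Psma1, Psma3, Psma6, Psma8, Psmb11, Psmc6, Psmd2, Psmd3, Psmd6 and Psmg4. Psma8 and Psmb11 are restricted to testis and thymus, whereas the other 8 encode or assemble parts of every proteasome, so a probe without signal does not show that the transcript is missing. Psmc3ip and Psme3ip1 fall under the rule by name but encode no proteasome subunit.

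The share of all probes detected per array ran from 12.6% (D2 LSK replicate 2) to 27.4%. D2 progenitor replicate 1 had 17.5%. Arrays of 1 group correlated with each other at a mean r of 0.925 (D2 LSK replicate 2) to 0.987, and B6 Ter119+ replicate 2 had 0.948. The mean over each marker list of the labelled cells was highest in its own groups, but single markers did not all follow. Kit, Gata2 and Cd34, counted as progenitor markers, were higher in LSK cells in both strains, and Gata1 in B6 was highest in Ter119+ cells. Of 7 LSK markers 6 had a probe used here, without Ly6a (Sca-1). Only 2, Kit and Meis1, were detected on all 3 arrays of both LSK groups. Procr was detected on 1 B6 LSK array alone. Mecom in D2 was higher in Gr1+ (4.848) and Ter119+ cells (4.826) than in LSK cells (4.714). Hlf in B6 was highest in Gr1+ cells (5.14, against 4.721 in LSK cells). Flt3, Mmp8 and Epb42 were detected on no array. Arrays of each cell type also held other cells' markers. All 5 B cell markers on the array (Cd79b, Ms4a1, Vpreb1, Vpreb3, Igll1) were detected on all 6 Ter119+ arrays, with a mean level of 9.31 to 9.63 in D2 and 9.13 to 9.23 in B6, against at most 6.65 on any array of the other cell types. Of 7 neutrophil markers, 6 were detected there, at a mean of 10.9 to 11.1 in D2 and 10.6 to 10.8 in B6, against 12.4 to 12.7 on the Gr1+ arrays. The neutrophil markers also differed between the strains in progenitors, at 8.6 to 10.3 in D2 and 7.79 to 8.03 in B6. LSK cells had them at 8.81 to 10.4 in D2 and 8.86 to 9.17 in B6. In Gr1+ cells 4 of the 5 B cell markers were detected on all 3 arrays of each strain. T and NK cell markers had a mean there of 6.19 to 6.37 in D2 and 6.26 to 6.29 in B6, with Cd3d at 10.14 and 7.0. In both strains C1qa, C1qb, C1qc and Vcam1, macrophage markers, were highest in Ter119+ cells, and Csf1r and Adgre1 in Gr1+ cells. The part of these cells in the values below was not tested. In such bulk samples fewer cells of a type and less RNA per cell cannot be told apart.

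Proteasome transcripts were highest in committed progenitors. In each array the median was taken over the 53 probes of the difference from each probe's own mean. This median lay between 0.22 and 0.581 on the D2 progenitor arrays and between 0.537 and 0.589 on the B6 progenitor arrays. On the D2 arrays it was between -0.339 and -0.0426 in Ter119+ cells, between -0.39 and -0.237 in Gr1+ cells and between -0.25 and -0.0863 in LSK cells. On the B6 arrays it was between 0.0762 and 0.139 in Ter119+ cells, between -0.353 and -0.152 in Gr1+ cells and between -0.0132 and 0.0773 in LSK cells. No progenitor array overlapped with an array of another cell type. Progenitors had the highest group mean for 44 of the 53 probes in D2 (83%, against 27.8% of all 12668 probes kept) and for 40 in B6 (75.5%, against 27%). For 38 probes this held in both strains (71.7%, against 20.6%). Progenitors had the lowest mean for 0 of the 53 in either strain. Gr1+ cells were lowest for 24 probes in D2 (45.3%, against 35.4% of all probes) and 31 in B6 (58.5%, against 39.2%).

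**Figure D1:**
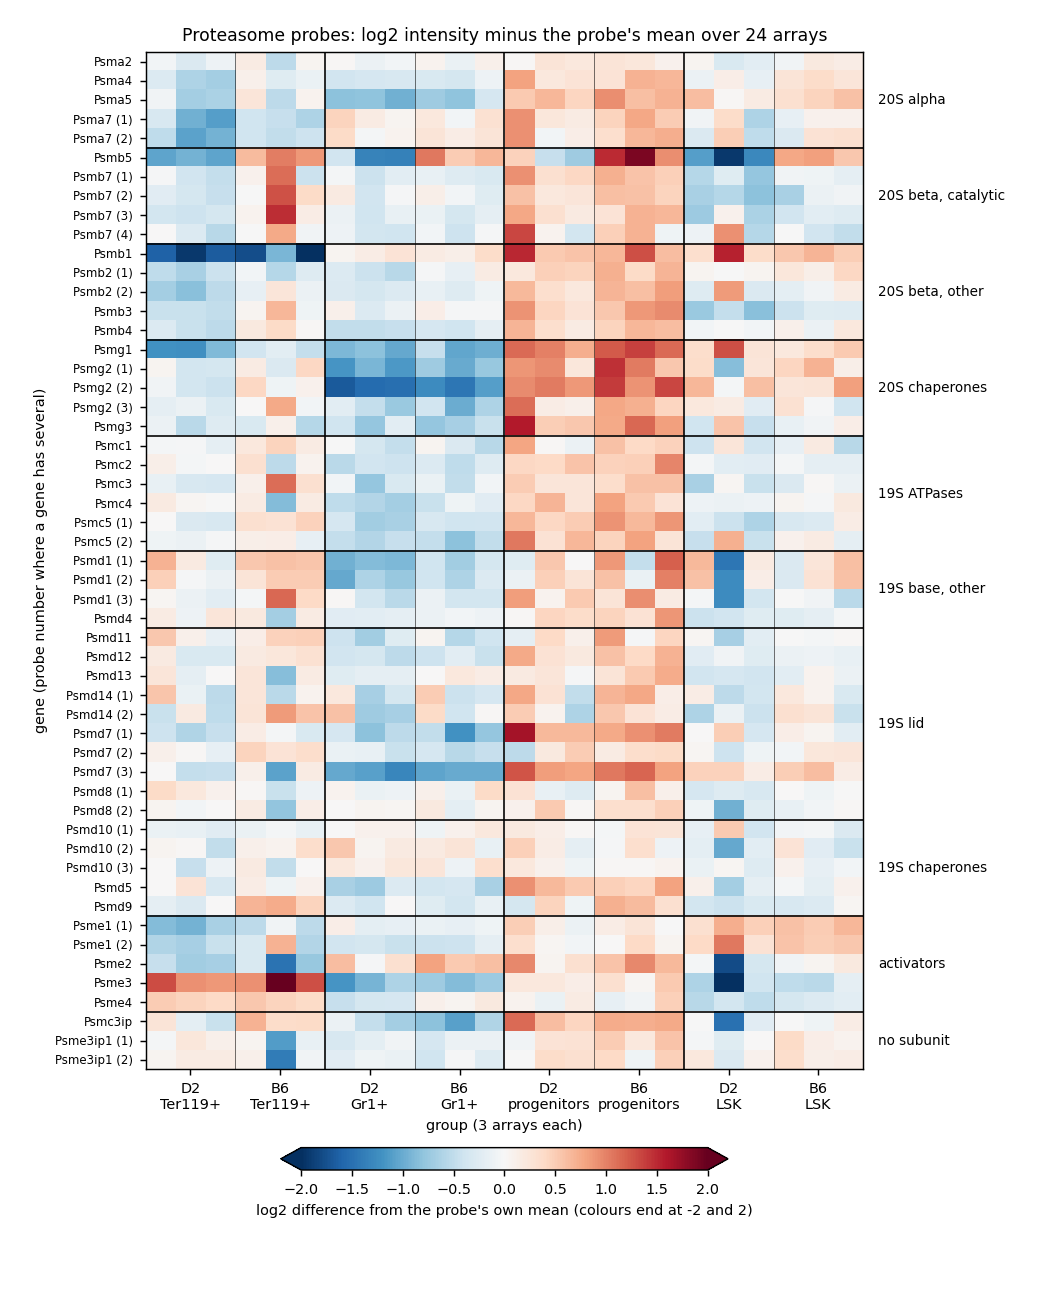
Level of each of the 53 proteasome probes (rows, by subcomplex) on each of the 24 arrays (columns, 3 per group), as log2 intensity minus the probe's mean over all arrays. Red is above and blue below that mean, and colours end at -2 and 2. The progenitor columns are red for most rows, Psmb1 is blue in Ter119+ cells and Psme3 is red there, and Psmb5 differs between the strains in every cell type.

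The comparison of each step of differentiation gave the same order. A linear model over the 24 arrays was tested with limma at an adjusted p under 0.05 over all 12668 probes. From LSK cells to progenitors 39.9% of all probes changed, 21.5% up and 18.4% down. Of the 53 proteasome probes 34 (64.2%) were higher in progenitors and 2 (3.77%) were lower, with a median difference of 0.541, against 0.0352 over all probes. Between Gr1+ cells and progenitors 67.1% of all probes changed, 29.2% up and 37.9% down. Of the 53, 40 (75.5%) were lower in Gr1+ cells and 0 were higher, and the median was -0.693, against -0.105 over all probes. Between Ter119+ cells and progenitors 54.5% of all probes changed, 24.4% up and 30.1% down. Of the 53, 33 (62.3%) were lower in Ter119+ cells and 2 (Psme3 and Psme4) higher, and the median was -0.446, against -0.0766. Between Ter119+ and Gr1+ cells 56.8% of all probes changed, 30.8% up and 26% down, and of the 53, 21 were higher and 6 lower in Ter119+ cells, with a median of 0.263, against 0.0828. The comparisons that involve progenitors share those arrays. The difference had the same sign in D2 and in B6 for 53, 52, 44 and 39 of the 53 probes in these 4 comparisons. The share of all probes with the same sign was not counted, so this agreement is not shown to be particular to the 53. Asking for detection on every array compared left 38 probes for progenitors against LSK cells, of which 26 were higher (68.4%, against 23.4% of all probes so kept) and 2 lower in progenitors. It left 42 for Gr1+ cells against progenitors, of which 32 were lower in Gr1+ cells (76.2%, against 43.5%).

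**Figure D2:**
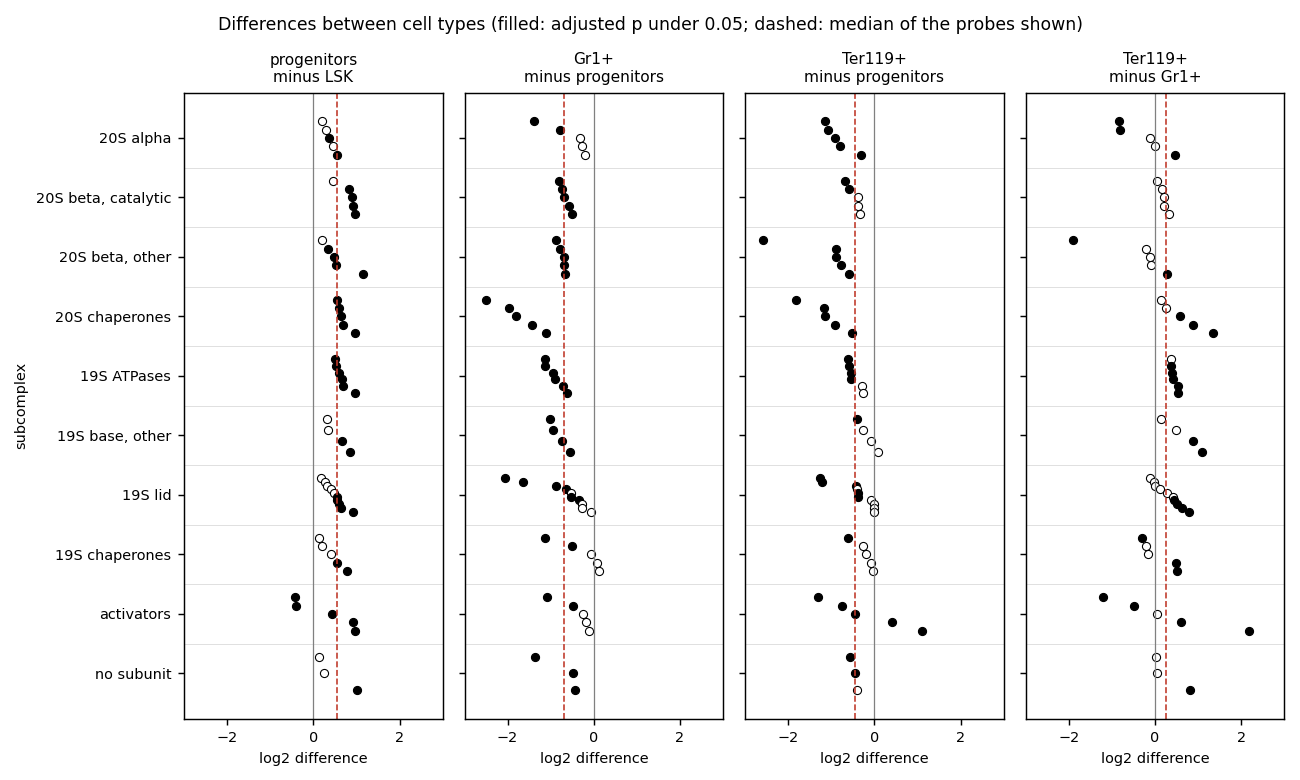
Log2 differences between cell types, averaged over the strains, for the 53 probes (points) by subcomplex. Filled points have an adjusted p under 0.05, and the dashed line is the median of the 53. Most points lie above 0 for progenitors minus LSK cells and below 0 for both mature cell types minus progenitors. Psme1 in the first panel (not with 75th percentile scaling) and Psme3 for Ter119+ cells minus progenitors go the other way.

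The genes lie on 16 chromosomes, with at most 8 on any of them, so what they share was also looked for in their promoters. RefSeq entries (GRCm38.p6) were found for 37 of the 45 genes, not for Psma8, Psmb1, Psmb2, Psmb7, Psmc3, Psmd3, Psmd7 and Psmg2. The 250 bases before each annotated start were searched on both strands for fixed letters. Of the 37 genes 29 had a kept probe, and the counts are over all 37. The core of an ETS factor site, CCGGAAG, was in 12 of the 37 (32.4%), against 7.05% of 27025 promoters of all genes. The 12 include Psmc6, Psmd2 and Psmd6, which had no kept probe, and Psmc3ip, which encodes no subunit. The GC box, GGGCGG, was in 20 (54.1%, against 32.9%) and CCAAT in 14 (37.8%, against 34.5%). The TATA box letters TATAAA were in 3 (8.11%, against 13%) and the E-box CACGTG in 3 (8.11%, against 6.05%). The core of the antioxidant response element, through which the factor Nfe2l1 raises proteasome genes, was read as TGACNNNGC, in 4 (10.8%, against 10.1%), and as TGAGNNNGC, in 9 (24.3%, against 14.2%). The interferon-stimulated response element was in 3 (8.11%, against 3.04%), and the gamma-interferon activated site, TTCNNNGAA, was in 1 (2.7%, against 7.18%). Each match is a run of letters and not a measured site. The 4 promoters below are shown because their genes carry the main patterns: Psmg1 and Psmc2 were highest in progenitors, Psme3 was highest in Ter119+ cells, and Psmb5 differed most between the strains. They are written 5′ to 3′ on the gene's strand and end at the base before the start. Capitals mark CCGGAAG or its complement CTTCCGG in the first 3 and TGACNNNGC in Psmb5. Psme3 shares the ETS letters with Psmg1 and Psmc2, whose transcripts moved the other way between Ter119+ cells and progenitors.
Psmg1, chr16:95990961-95991210, minus strand: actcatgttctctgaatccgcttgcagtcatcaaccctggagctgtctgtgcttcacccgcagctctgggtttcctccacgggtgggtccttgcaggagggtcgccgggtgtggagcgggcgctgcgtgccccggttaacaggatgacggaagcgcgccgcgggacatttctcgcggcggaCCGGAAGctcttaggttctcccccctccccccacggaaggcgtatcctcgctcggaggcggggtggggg
Psmc2, chr5:21785025-21785274, plus strand: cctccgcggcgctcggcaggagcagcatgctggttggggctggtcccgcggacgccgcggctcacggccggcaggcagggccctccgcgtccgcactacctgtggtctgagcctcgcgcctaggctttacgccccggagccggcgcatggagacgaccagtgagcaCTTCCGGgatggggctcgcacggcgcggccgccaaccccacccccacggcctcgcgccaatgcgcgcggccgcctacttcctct
Psme3, chr11:101315963-101316212, plus strand: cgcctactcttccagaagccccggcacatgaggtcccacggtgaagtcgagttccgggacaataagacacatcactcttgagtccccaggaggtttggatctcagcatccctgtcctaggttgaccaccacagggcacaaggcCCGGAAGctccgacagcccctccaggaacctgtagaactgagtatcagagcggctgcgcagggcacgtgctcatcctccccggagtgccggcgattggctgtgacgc
Psmb5, chr14:54617996-54618245, minus strand: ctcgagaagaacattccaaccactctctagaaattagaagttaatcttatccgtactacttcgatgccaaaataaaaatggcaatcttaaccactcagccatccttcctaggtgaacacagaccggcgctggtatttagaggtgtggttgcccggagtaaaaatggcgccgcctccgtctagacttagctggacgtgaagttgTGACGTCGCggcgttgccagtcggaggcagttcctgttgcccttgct

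The alpha ring forms the outer faces of the barrel and its gate. Its 5 kept probes (Psma2, Psma4, Psma5 and 2 of Psma7) were all lower in Ter119+ cells than in progenitors. Psma7 read 8.63, 8.07 and 8.20 on the D2 and 8.74, 8.65 and 8.73 on the B6 Ter119+ arrays with its brighter probe, against 10.06, 9.09 and 9.27 on the D2 and 9.48, 9.81 and 9.86 on the B6 progenitor arrays. The groups did not overlap, and the differences of its 2 probes were -1.09 ± 0.179 (SE, adjusted p = 2.02e-05, limma) and -1.15 ± 0.168 (adjusted p = 4.53e-06). Psma7 in Gr1+ cells did not pass against progenitors (-0.27 and -0.31, adjusted p = 0.184 and 0.104), and Ter119+ cells were below Gr1+ cells by 0.81 and 0.83 with the 2 probes. Psma5 went the other way between the mature cells. Its level was 10.49, 10.50 and 10.35 in D2 and 10.60, 10.49 and 10.97 in B6 Gr1+ cells, against 11.83, 11.97 and 11.73 in D2 and 12.23, 11.91 and 12.00 in B6 progenitors. That fall of 1.38 ± 0.147 (2.6-fold, adjusted p = 1.91e-08) exceeded that in Ter119+ cells (-0.91 ± 0.147), and Ter119+ cells were above Gr1+ cells by 0.47 ± 0.147 (adjusted p = 0.00895). Psma4 was lower in both mature types by similar amounts, -0.79 in Gr1+ and -0.80 in Ter119+ cells. Psma2 was nearly level: only the difference between Ter119+ cells and progenitors passed (-0.31 ± 0.12, adjusted p = 0.035). That call was lost without B6 Ter119+ replicate 2 (-0.196, adjusted p = 0.114). Of the alpha probes 2 rose from LSK cells to progenitors, Psma7 (its dimmer probe, 0.56) and Psma4 (0.37).

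Of the constitutive catalytic subunits the rule leaves out Psmb6 and keeps Psmb5, which carries the chymotrypsin-like site, and Psmb7, which carries the trypsin-like site. Psmb5 and Psmb7 were higher in progenitors than in LSK cells. Psmb7 has 4 kept probes, of which 3 passed, with differences of 0.83 ± 0.193, 0.89 ± 0.184 and 0.92 ± 0.168, and the dimmest did not (0.47 ± 0.255, adjusted p = 0.156). Psmb5 rose by 0.96 ± 0.21 (adjusted p = 0.000842). In Gr1+ cells all 5 catalytic probes were lower than in progenitors, by 0.51 to 0.80. In Ter119+ cells only Psmb5 (-0.68) and 1 of 4 Psmb7 probes (-0.59) were.

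The non-catalytic beta subunits Psmb1, Psmb2, Psmb3 and Psmb4 complete the inner rings. Psmb1 stood apart from them in erythroid cells. It read 7.66, 7.34 and 7.61 on the D2 and 7.51, 8.36 and 6.89 on the B6 Ter119+ arrays. The progenitor arrays had 10.79, 9.81 and 9.85 in D2 and 9.95, 10.56 and 9.90 in B6. Every Ter119+ array lay below every array of the other cell types, whose lowest value was 9.33 in D2 Gr1+ cells. The difference was -2.58 ± 0.229 against progenitors (5.98-fold, adjusted p = 2.27e-09) and -1.90 ± 0.229 against Gr1+ cells (3.74-fold, adjusted p = 1.87e-07), with the same size in D2 (-2.61 and -1.90) and B6 (-2.55 and -1.91). The 4 probes of Psmb2, Psmb3 and Psmb4 differed between Ter119+ cells and progenitors by -0.895 to -0.593, and between Ter119+ and Gr1+ cells by -0.20 to 0.29, of which only Psmb4 passed (0.29, adjusted p = 0.028). Psmb4 did not pass without B6 Ter119+ replicate 2 (0.241, adjusted p = 0.0604). Psmb1 is measured by 1 probe, so it has no second probe to set beside this.

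Psmb3 had the largest rise among the beta subunits from LSK cells to progenitors. Its level was 10.72, 10.25 and 10.10 in D2 and 10.36, 10.69 and 10.78 in B6 progenitors, against 9.08, 9.35 and 8.99 in D2 and 9.40, 9.59 and 9.57 in B6 LSK cells. The groups did not overlap, and the difference was 1.16 ± 0.137 (2.23-fold, adjusted p = 5.3e-07). Psmb4 and both Psmb2 probes rose by 0.34 to 0.52, and Psmb1 did not pass (0.20 ± 0.229, adjusted p = 0.518). In Gr1+ cells all 5 non-catalytic probes were lower than in progenitors, by 0.68 to 0.88.

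The assembly chaperones of the barrel had the lowest median difference of the subcomplexes in Gr1+ cells against progenitors (-1.80) and in Ter119+ cells against progenitors (-1.15). Psmg1 and Psmg2 form a pair that starts the alpha ring, and Psmg3 acts beside them with Psmg4. All 5 of their kept probes were higher in progenitors than in LSK cells (0.54 to 0.96), and all 5 were lower in Gr1+ cells (-2.50 to -1.11) and in Ter119+ cells (-1.83 to -0.53) than in progenitors. Psmg2 read 6.87, 7.01 and 7.05 on the D2 and 7.29, 7.11 and 7.46 on the B6 Gr1+ arrays with its brightest probe, against 9.50, 9.59 and 9.42 on the D2 and 9.95, 9.45 and 9.89 on the B6 progenitor arrays. That gap of -2.50 ± 0.145 (5.66-fold, adjusted p = 4.8e-13) was the largest of any kept proteasome probe in this comparison. Its 2 dimmer probes gave -1.80 and -1.11, with detection on 1 and 2 of the 6 Gr1+ arrays. In Ter119+ cells Psmg2 was at 8.48, 8.19 and 8.12 in D2 and 8.97, 8.46 and 8.65 in B6, between both, and above Gr1+ cells by 1.35 ± 0.145 (adjusted p = 3.15e-08). Psmg1 did not show that difference between the mature cells. It had 5.47, 5.46 and 5.79 in D2 and 6.30, 6.47 and 6.20 in B6 Ter119+ cells. It had 5.79, 5.85 and 5.65 in D2 and 6.23, 5.64 and 5.70 in B6 Gr1+ cells. In progenitors it was at 7.82, 7.69 and 7.40 in D2 and 7.91, 8.04 and 7.82 in B6. It was below progenitors by 1.83 ± 0.155 in Ter119+ and by 1.97 ± 0.155 in Gr1+ cells, and Ter119+ minus Gr1+ was 0.14 (adjusted p = 0.459). Psmg3 was lower than in progenitors by 1.44 in Gr1+ and 1.18 in Ter119+ cells (adjusted p = 7.52e-07 and 2.19e-05).

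**Figure D3:**
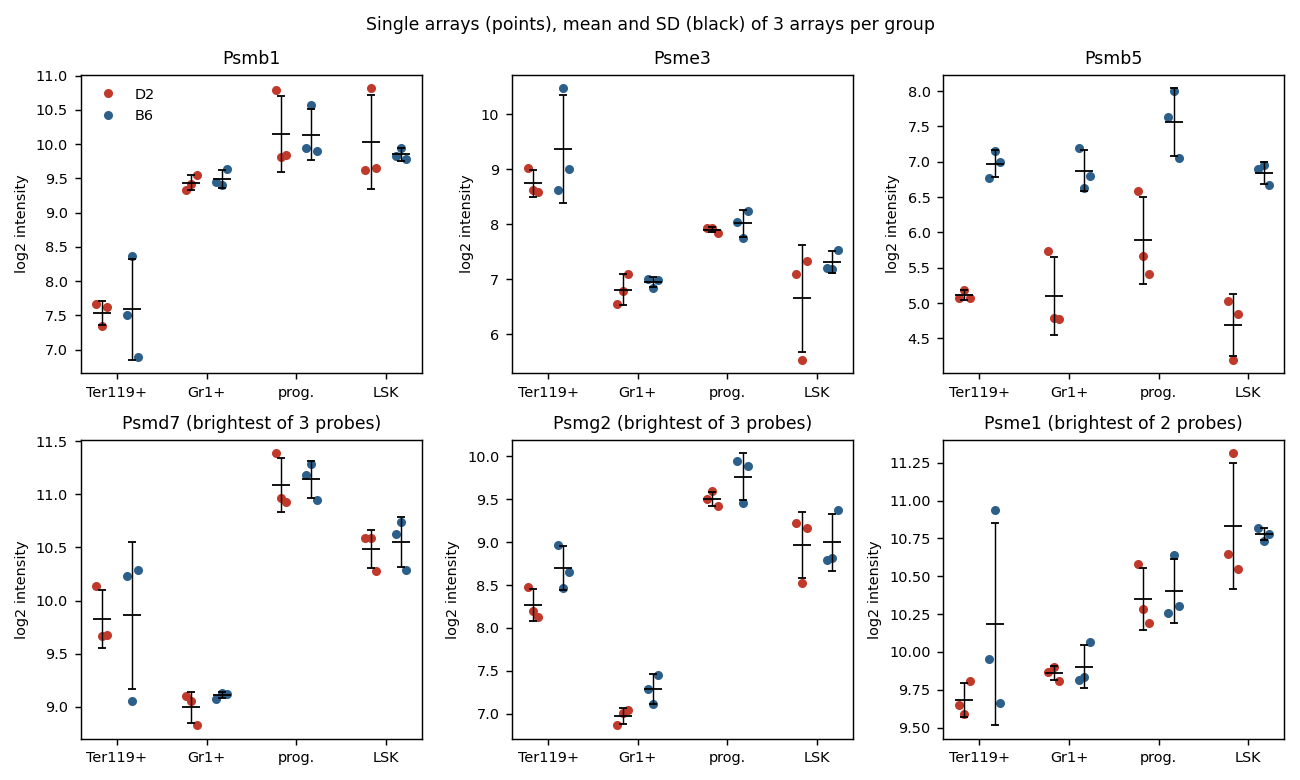
Log2 intensity of 6 genes on each array (points, D2 left of B6 in each cell type), with the mean and SD of 3 arrays in black. The vertical scale differs between panels. Psmb1 is lowest and Psme3 highest in Ter119+ cells, Psmd7 and Psmg2 are highest in progenitors, Psme1 is highest in LSK cells with this normalization but not with 75th percentile scaling, and all D2 values of Psmb5 lie below the B6 values of the same cell type.

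The ATPases of the 19S base form the ring that unfolds substrates and opens the barrel. All 6 kept probes (Psmc1 to Psmc4 and 2 of Psmc5) were higher in progenitors than in LSK cells and lower in Gr1+ cells than in progenitors. The rise was 0.50 to 0.96. The dimmer Psmc5 probe rose most, with 7.95, 7.70 and 7.79 in D2 and 8.17, 7.93 and 8.16 in B6 progenitors, against 7.06, 6.84 and 6.66 in D2 and 6.95, 7.01 and 7.42 in B6 LSK cells (0.96 ± 0.116, adjusted p = 6.62e-07). These groups did not overlap. In Gr1+ cells both Psmc5 probes were lower by 1.13 and 1.14, Psmc2 by 0.94, Psmc4 by 0.91, Psmc3 by 0.72 and Psmc1 by 0.62. In Ter119+ cells 4 of the 6 probes were lower than in progenitors, by 0.54 to 0.60, while Psmc1 (-0.26, adjusted p = 0.204) and Psmc3 (-0.30, adjusted p = 0.129) did not pass. Against Gr1+ cells Ter119+ cells were higher in 5 of the 6, by 0.37 to 0.54, and Psmc1 did not pass (0.37, adjusted p = 0.0647). Psmc3, 1 of the 5, did not pass without B6 Ter119+ replicate 2 (0.276, adjusted p = 0.112). The ATPase ring thus ran opposite to Psma7 and Psmb1 between the mature cell types, a difference between genes that was not itself tested.

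Psmd4, a ubiquitin receptor of the base, rose by 0.66 ± 0.142 in progenitors and was lower by 0.55 in Gr1+ and 0.41 in Ter119+ cells. The difference in Ter119+ cells did not pass without B6 Ter119+ replicate 2 (-0.265, adjusted p = 0.0593). Psmd1, a scaffold of the base, was lower in Gr1+ cells than in progenitors with all 3 probes (-1.01 to -0.75). In Ter119+ cells none of the 3 passed against progenitors (-0.26 to 0.08). Its brightest probe read 9.75, 9.24 and 9.16 in D2 and 9.53, 9.78 and 9.77 in B6 Ter119+ cells, against 8.26, 8.66 and 8.51 in D2 and 8.88, 8.66 and 8.997 in B6 Gr1+ cells. Ter119+ cells were above Gr1+ cells by 0.88 ± 0.241 and 1.09 ± 0.291 with the 2 brighter probes (adjusted p = 0.00352 and 0.00286), without overlap. Only the dimmest Psmd1 probe rose from LSK cells to progenitors (0.85, adjusted p = 0.00284). The others did not pass (0.34 and 0.32), with D2 LSK replicate 2 lowest on both, at 8.02 and 7.54.

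The lid cuts off the ubiquitin chain. Psmd14 is its deubiquitinase, Psmd7 is the inactive partner of Psmd14, and Psmd8, Psmd11, Psmd12 and Psmd13 form its frame. Psmd7 had the largest differences. Its brightest probe read 9.10, 9.05 and 8.83 in D2 and 9.07, 9.13 and 9.12 in B6 Gr1+ cells, against 11.38, 10.96 and 10.93 in D2 and 11.19, 11.29 and 10.94 in B6 progenitors. That is -2.06 ± 0.172 (4.18-fold, adjusted p = 2.93e-10), and the next probe gave -1.64 ± 0.177. In Ter119+ cells the same 2 probes were lower than in progenitors by 1.27 and 1.22. The dimmest Psmd7 probe was detected on 0 of 6 Gr1+ arrays and was at least 1.06-fold lower there than in progenitors (adjusted p = 0.00255). Psmd12 followed with 0.64 ± 0.117 from LSK cells to progenitors, -0.87 in Gr1+ and -0.44 in Ter119+ cells. Psmd13 (-0.35 and -0.38) and Psmd8 (its brighter probe, -0.27, adjusted p = 0.141, and -0.38, adjusted p = 0.0498) differed less from progenitors in Gr1+ and Ter119+ cells, and rose by 0.54 and 0.55 from LSK cells to progenitors. Without B6 Ter119+ replicate 2 neither passed in Ter119+ cells against progenitors (-0.205 and -0.223, adjusted p = 0.116 and 0.181). Psmd14 did not pass in any of these 4 comparisons with either of its 2 probes, which were detected on 4 or 5 of 6 progenitor, Ter119+ and LSK arrays and on 3 or 2 Gr1+ arrays. Psmd11 was near the detection limit too, at 1 of 6 Gr1+ arrays, and was lower in Gr1+ than in Ter119+ cells (0.63 for Ter119+ minus Gr1+, adjusted p = 0.00258) and progenitors (-0.64, adjusted p = 0.00188).

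Psmd5, Psmd9 and Psmd10 hold the ATPases while the base is built. Psmd10, also known as gankyrin, passed with none of its 3 probes in the comparisons with progenitors. The differences from progenitors were -0.07 to 0.11 in Gr1+ cells and -0.28 to -0.09 in Ter119+ cells. Progenitors minus LSK cells gave 0.13 to 0.42. The brightest Psmd10 probe was lower in Ter119+ than in Gr1+ cells by 0.31 (adjusted p = 0.0398), but not without B6 Ter119+ replicate 2 (-0.211, adjusted p = 0.121). It ranged from 7.52 to 8.33 over all 24 arrays, and the dimmer probes from 5.14 to 6.70 and from 5.52 to 6.42. Psmd5 was detected on all 6 progenitor arrays and on 0 of 6 Gr1+ arrays, and was at least 1.62-fold lower in Gr1+ cells (adjusted p = 2.04e-07). Psmd5 (0.79) and Psmd9 (0.56) rose from LSK cells to progenitors, where Psmd9 was detected on 4 of 6 progenitor and 1 of 6 LSK arrays. With arrays scaled to the 75th percentile of the probes detected everywhere, neither Psmd5 (adjusted p = 0.599) nor Psmd9 (0.103, adjusted p = 0.851) passed. The Psmd9 probe was kept through B6 progenitors and B6 Ter119+ cells only.

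The activator caps did not move together. Psme1 and Psme2 encode the PA28 alpha and beta chains, which join in 1 ring and are induced by interferon gamma. They were called in opposite directions at the first step. Psme1 read 10.58, 10.28 and 10.19 in D2 and 10.26, 10.64 and 10.30 in B6 progenitors, against 10.64, 11.31 and 10.54 in D2 and 10.82, 10.74 and 10.78 in B6 LSK cells. Its 2 probes were lower in progenitors by 0.43 ± 0.17 (adjusted p = 0.0475) and 0.40 ± 0.124 (adjusted p = 0.0127), although this turned to 0.14 and 0.12 (adjusted p = 0.788 and 0.857) when arrays were scaled to their 75th percentile. The call of the brighter probe, whose values are printed, held in 15 of 36 alternatives, and that of the dimmer in 35. Leaving out D2 LSK replicate 2, the highest LSK array, was among the alternatives that lost the former. Psme1 was the only 1 of the 35 genes called lower at this step. Psme2 read 8.35, 7.44 and 7.71 in D2 and 7.96, 8.36 and 8.04 in B6 progenitors, against 7.35, 5.61 and 7.04 in D2 and 7.32, 7.45 and 7.59 in B6 LSK cells, a rise of 0.92 ± 0.235 (adjusted p = 0.0034). The lowest value is that of D2 LSK replicate 2. Both were lower in Ter119+ cells than in progenitors, Psme2 by 1.31 ± 0.235 and Psme1 by 0.44 and 0.74. Psme2 did not pass between Gr1+ cells and progenitors (-0.11, adjusted p = 0.701).

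Psme3 and Psme4 encode nuclear caps, PA28 gamma and PA200, and both had their highest means in Ter119+ cells. Psme3 had 9.03, 8.62 and 8.58 in D2 and 8.62, 10.47 and 8.999 in B6 Ter119+ cells. Gr1+ cells had 6.54, 6.78 and 7.09 in D2 and 7.003, 6.84 and 6.99 in B6. Progenitors had 7.92, 7.92 and 7.84 in D2 and 8.04, 7.75 and 8.25 in B6. The Ter119+ arrays lay above all others. The difference was 1.10 ± 0.266 against progenitors (2.14-fold, adjusted p = 0.00125) and 2.18 ± 0.266 against Gr1+ cells (4.53-fold, adjusted p = 2.43e-07). B6 Ter119+ replicate 2 was the highest of these arrays, and without it the differences were 0.829 (adjusted p = 0.00404) and 1.91 (adjusted p = 2.92e-07). Psme4 was higher in Ter119+ cells by 0.40 ± 0.109 against progenitors (adjusted p = 0.00362) and by 0.59 ± 0.109 against Gr1+ cells (adjusted p = 6.78e-05). Psme4 had 9.53, 9.46 and 9.42 in D2 and 9.56, 9.47 and 9.41 in B6 Ter119+ cells, against 9.09, 8.88 and 9.18 in D2 and 8.86, 8.96 and 9.49 in B6 progenitors. Only B6 progenitor replicate 3 reached into the Ter119+ values. At the first step both rose as the 19S and 20S genes did, Psme3 by 0.98 and Psme4 by 0.43.

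Psmc3ip is a cofactor of homologous recombination and no ATPase of the base. It was higher in progenitors than in LSK cells by 1.01 ± 0.199. Against progenitors it was lower by 1.36 in Gr1+ and 0.56 in Ter119+ cells. Psme3ip1, which binds Psme3, was lower by 0.49 and 0.43 in Gr1+ cells than in progenitors with its 2 probes, and by 0.45 in Ter119+ cells with 1 of them. The latter call was lost without B6 Ter119+ replicate 2 (-0.269, adjusted p = 0.0525). Psme3ip1 did not rise from LSK cells to progenitors (0.24 and 0.14, adjusted p = 0.226 and 0.603).

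Between the strains, D2 values were more often below B6 values. In LSK cells 7.68% of all probes differed between D2 and B6 (2.49% higher and 5.19% lower in D2). In progenitors 5.23% did (1.98% higher and 3.24% lower) and in Gr1+ cells 5.85% (2.38% higher and 3.47% lower). Of the 53 proteasome probes 1 differed in each of these (1.89%), always Psmb5 and always lower in D2. In Ter119+ cells 15.5% of all probes differed, 7.22% higher and 8.27% lower in D2, and 10 of the 53 (18.9%), in 9 genes, all lower in D2. Averaged over the cell types 19.7% of all probes differed, 8.29% higher and 11.4% lower, and 9 of the 53 (17%), all lower in D2. Among the called probes, those of Psmd9 and Psmd14 were kept through B6 groups only. The median difference of the 53 was -0.356 in Ter119+ cells, -0.093 in Gr1+ cells, -0.18 in progenitors and -0.203 in LSK cells, against -0.00839, 0.00276, -0.0158 and -0.0837 over all probes. It was below 0 for 43, 38, 45 and 45 of the 53, and for 51.1%, 49.4%, 52.4% and 60.6% of all probes. The sign of the median in LSK cells depends on the scaling, since arrays scaled to the 75th percentile of the probes detected everywhere gave 0.0247, with 0.63 over all probes. Whether the strain difference varies between the cell types was tested by an F test, which called 5.08% of all probes and 0 of the 53 (4 at an unadjusted p under 0.05, with a smallest adjusted p of 0.204). The 10 differences in Ter119+ cells are therefore not shown to be larger there than in the other cells.

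Psmb5, the chymotrypsin-like catalytic subunit, was lower in D2 in every cell type. In Ter119+ cells it read 5.07, 5.19 and 5.07 in D2, against 6.77, 7.15 and 7.0 in B6. In Gr1+ cells it read 5.74, 4.80 and 4.78 in D2, against 7.19, 6.64 and 6.79 in B6. In progenitors it read 6.59, 5.66 and 5.41 in D2, against 7.63, 8.01 and 7.06 in B6. The strains did not overlap in any of these, nor in LSK cells, with 5.03, 4.20 and 4.84 in D2, against 6.90, 6.95 and 6.67 in B6. The difference was -1.86 ± 0.297 in Ter119+ cells (3.64-fold, adjusted p = 9.78e-05), -1.77 ± 0.297 in Gr1+ cells (3.41-fold, adjusted p = 0.000219), -1.67 ± 0.297 in progenitors (3.19-fold, adjusted p = 0.000499) and -2.15 ± 0.297 in LSK cells (4.45-fold, adjusted p = 1.63e-05). The averaged difference was -1.87 ± 0.148 (adjusted p = 7.93e-10). The probe was detected on all 12 B6 arrays and, in D2, on 3 of 3 Ter119+, 1 of 3 Gr1+, 3 of 3 progenitor and 2 of 3 LSK arrays. With arrays scaled to the 75th percentile of the probes detected everywhere the difference passed in Ter119+ cells (-2.0, adjusted p = 0.0213) and on average (-1.6, adjusted p = 0.000106). It did not pass in Gr1+ cells (-1.64, adjusted p = 0.13), progenitors (-1.66, adjusted p = 0.0869) and LSK cells (-1.1, adjusted p = 0.152). Without background correction every one of these differences passed, at -1.02 to -0.872. Psmb5 has this 1 probe. Whether its sequence matches the D2 transcript as well as the B6 transcript was not tested, so a lower transcript level and weaker binding of the probe cannot be told apart. The differences of Psmb5 between cell types had the same sign in both strains. Progenitors were above LSK cells by 1.20 in D2 and 0.72 in B6, and Gr1+ cells were below progenitors by 0.78 in D2 and 0.69 in B6.

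**Figure D4:**
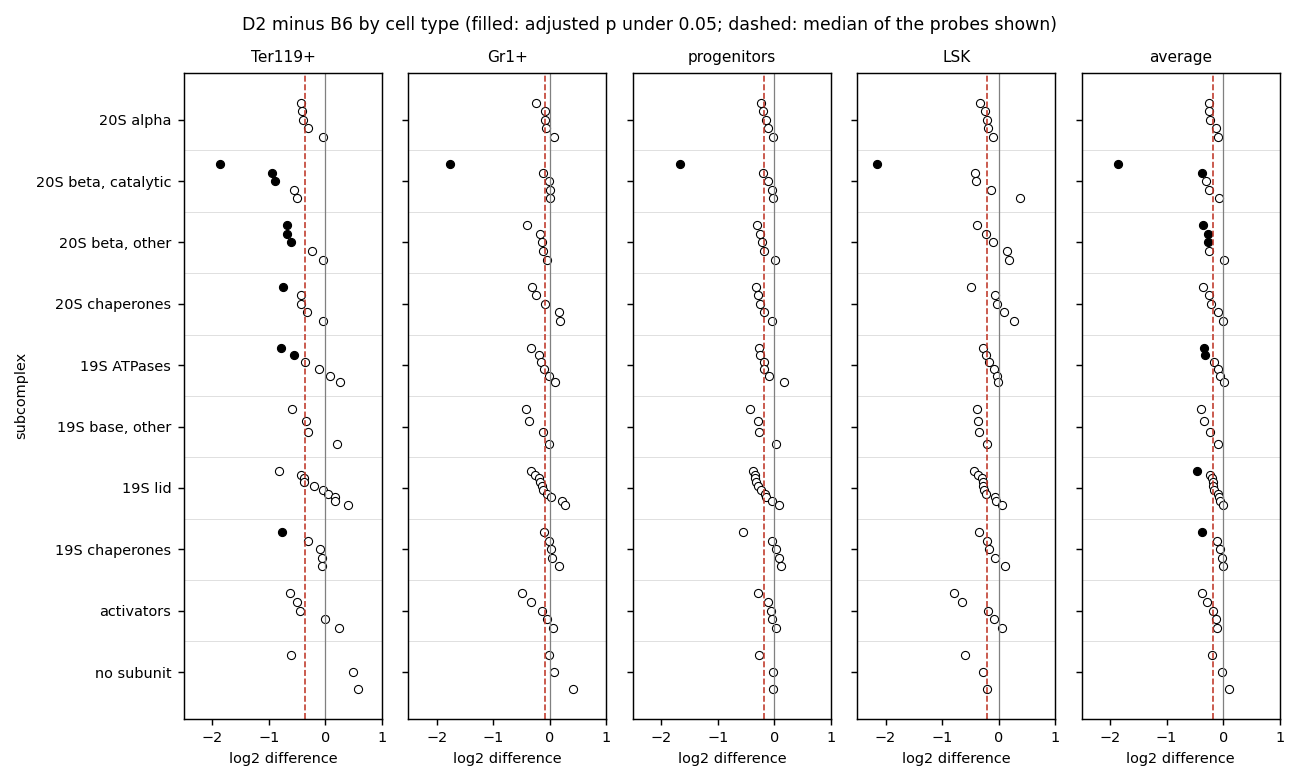
D2 minus B6 log2 differences of the 53 probes (points) by subcomplex, in each cell type and averaged over the 4. Filled points have an adjusted p under 0.05, and the dashed line is the median of the 53. Psmb5 is the filled point at the far left of every panel, and the other filled points occur only for Ter119+ cells and the average.

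The other strain calls in Ter119+ cells were in the barrel, the ATPases and 2 chaperones. Psmb7 had 7.94, 7.90 and 7.95 in D2, against 8.38, 9.79 and 8.45 in B6, with its brightest probe, and B6 replicate 2 was the highest. Its 4 probes gave -0.94 and -0.90 (adjusted p = 0.0202 and 0.0115) and, not passing, -0.56 and -0.50 (adjusted p = 0.16 and 0.405). Psmb4 had 10.65, 10.48 and 10.40 in D2, against 11.12, 11.30 and 10.94 in B6 (-0.61 ± 0.154, adjusted p = 0.00822). Psmb3 differed by -0.67 ± 0.194, Psmc3 by -0.78 ± 0.231 and Psmg1 by -0.75 ± 0.218 (adjusted p = 0.0198, 0.0238 and 0.0213). Of 2 Psmb2 probes the dimmer passed (-0.67, adjusted p = 0.0422), as did the dimmer of 2 Psmc5 probes (-0.56, adjusted p = 0.0224). Psmd9 was detected on 0 of 3 D2 and 3 of 3 B6 Ter119+ arrays, with a D2 level at least 1.35-fold below that of B6 (adjusted p = 0.00568). Its probe was kept through B6 progenitors and B6 Ter119+ cells only, so its strain calls are no independent support for a lower level in D2. Without B6 Ter119+ replicate 2 only 4 of the 10 calls remained, those of Psmb5, Psmd9, Psmc5 (-0.595, adjusted p = 0.0348) and Psmb4 (-0.519, adjusted p = 0.0401). Without that array the 2 Psmb7 probes gave -0.49 and -0.54 (adjusted p = 0.179 and 0.103). Leaving out D2 Ter119+ replicate 2 or replicate 3 instead also gave 4 calls. Across the cell types the averaged calls were Psmb5, 1 of 4 Psmb7 probes (-0.38), the brighter Psmb2 probe (-0.27), Psmb3 (-0.36), Psmb4 (-0.27), Psmc3 (-0.34), 1 of 2 Psmc5 probes (-0.33), 1 of 2 Psmd14 probes (-0.46) and Psmd9 (-0.37). The other Psmc5 probe, the brighter, gave 0.02 on average. Psmd9 was detected on 1 of 12 D2 and 7 of 12 B6 arrays, and its averaged difference turned to 0.225 (adjusted p = 0.552) with the scaling to probes detected everywhere, under which Psmb5 was the 1 averaged call left. The averaged call of Psmc3 (adjusted p = 0.0426) was lost under 18 of 35 alternatives, and that of Psmd14 (adjusted p = 0.0465) under 22 of 34. The called Psmd14 probe was kept through B6 groups only. In D2 it was detected on 1 of 3 Ter119+, 1 of 3 Gr1+, 2 of 3 progenitor and 1 of 3 LSK arrays. Without the 3 arrays that stood apart in detection or correlation (D2 LSK replicate 2, D2 progenitor replicate 1 and B6 Ter119+ replicate 2), the average held 19 calls, all lower in D2, where 26.2% of all probes were called.

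Genes that work with the proteasome but carry other names were followed as a list: its other subunits and assembly factors, the deubiquitinases and ligases bound to it, ubiquitin genes (no probe used here), shuttle and unfolding factors and the transcription factors of its genes. The array had 41 probes for them, of which 22, in 16 genes, were kept. From LSK cells to progenitors 4 of 22 rose (18.2%, against 21.5% of all probes: Nploc4 by 0.72, Ubqln4 by 0.60, 1 of 4 Uchl5 probes by 0.46 and Nfe2l2 by 0.40) and 0 fell. In Gr1+ cells 11 were lower (50%, against 37.9% of all probes) and 3 higher (13.6%, against 29.2%) than in progenitors. The largest were Mafg, a small partner of the Nfe2l factors, with 1.98 and 1.67, and Nsfl1c, a cofactor of the unfoldase Vcp, with -1.24. In Ter119+ cells 8 were lower (36.4%, against 30.1%) and 2 higher (9.09%, against 24.4%). Syvn1, a ubiquitin ligase of the endoplasmic reticulum, was higher by 1.78 ± 0.144 (adjusted p = 5.45e-10), and Rad23b, a shuttle factor, was lower by 1.19 with its larger difference. Pomp, which matures the beta ring, was lower by 0.29 in Gr1+ and 0.60 in Ter119+ cells. Between the strains Syvn1 was higher in D2 Ter119+ cells by 0.96 ± 0.204 (adjusted p = 0.00221), the only call in any single cell type. On average over the cell types Syvn1 was higher in D2 by 0.31, and Pomp (-0.23) and 1 Rad23b probe (-0.46) were lower.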

How the data were processed

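The 24 arrays (4 cell types, 2 strains, 3 arrays per group) were grouped by the labels. Raw columns hold, per the file headers, the intensity of each probe before background subtraction and normalization, from 67.9 to 46120. The deposited detection column is, from its values, a fraction equal to 1 minus the detection p, although its header calls it a p-value. The series matrix holds, per the authors' deposited table, log2 values. Quantile normalization of the raw log2 intensities gave them back to within 0.00113, and they were an alternative. The submitters' processing notes name GenomeStudio. The 24 deposited call columns were not used.

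Intensities were background-corrected and quantile-normalized with neqc (offset 16) of limma 3.58.1 in R 4.3.3. Precision is limited by the number of arrays. Of 45281 probes, 34885 had 1 gene symbol in the supplied annotation, 18 had several and 10378 were not listed. RefSeq's table held the identifiers of all 45 proteasome genes. Probes detected at p under 0.01 on all 3 arrays of a group were kept (12668), and 1 mean per group was fitted per probe (16 residual degrees of freedom, prior 6.45). The 10 comparisons were the strains in each cell type and on average, 4 between cell types (averaged over strains), and an F test of strain by cell type, two-sided, with Benjamini-Hochberg adjustment over all kept probes and calls at an adjusted p under 0.05. Scripts were tested on simulated data. The ± is the SE of a difference. "At least" folds set undetected arrays to the lowest detected value of the array, or to the probe's own if higher. Probe sequences were not used here, and strain variants or matches to other genes were not checked. The labels give no batch. Deviations of same-numbered replicates of different groups had a mean r of 0.0708 over 84 pairs (-0.386 to 0.37, 37 of them over 0.1). Replicates of other numbers had -0.0334. They were not paired in the main fit, and the replicate block was an alternative.

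Genes were named by rule: per subcomplex the largest called rise and fall and the exceptions, every called strain difference, and all members of small subcomplexes. The members, lists and rules were chosen with earlier results of these data known. The alternatives were no background correction, 75th percentile scaling, the series matrix, other detection filters, 1 probe or the mean per gene, the replicate block, only the arrays compared, and arrays left out. Figures used Python 3.11.15 and matplotlib 3.10.9.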

Additional observations from a re-analysis of the deposited data

How the results depend on the processing

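Of the 160 calls of single probes over 9 comparisons, 55 held under every alternative that gave them a value (34 to 36), 103 were lost under at least 1 and 5 changed sign in at least 1. Leaving out 1 array at a time gave 1 to 2 calls for D2 minus B6 in LSK cells (2 without D2 LSK replicate 1), in progenitors (2 without D2 progenitor replicate 2) and in Gr1+ cells (2 without D2 LSK replicate 2, B6 progenitor replicate 3 or B6 Ter119+ replicate 2), 4 to 12 in Ter119+ cells, 6 to 13 on average, 34 to 39 for progenitors minus LSK cells, 37 to 41 for Gr1+ cells minus progenitors, 30 to 36 for Ter119+ cells minus progenitors, 24 to 30 for Ter119+ minus Gr1+ cells and 0 to 0 for the F test. Scaling to the 75th percentile gave 3 strain calls in Ter119+ cells and 24 on average, 25 for Gr1+ cells and 14 for Ter119+ cells minus progenitors, and 13 for Ter119+ minus Gr1+ cells. These are 5.66%, 45.3%, 47.2%, 26.4% and 24.5% of the 53, against 5.59%, 18.1%, 51.9%, 31.8% and 36.6% of all probes. Counting lower calls alone, the shares were 47.2% in Gr1+ and 24.5% in Ter119+ cells minus progenitors, against 31.3% and 14.7% of all probes. The 75th percentile probe was not detected on 15 of 24 arrays, so a scaling to that of the 4552 probes detected everywhere was added after seeing the data. It gave 0 strain calls in LSK cells, in progenitors and in Gr1+ cells, 1 in Ter119+ cells and 1 on average, 23 for progenitors minus LSK cells and 22 for Ter119+ cells minus progenitors. Where a count in this section has no share of all probes beside it, a change in the 53 and a change in all probes cannot be told apart. The 2 scalings moved the median of all probes to -0.573 and 0.63 for D2 minus B6 in LSK cells, -0.346 and 0.275 in progenitors, -0.308 and 0.254 on average, and 0.173 and -0.352 for progenitors minus LSK cells, where the 53 probes had 0.918 and 0.394. The share of higher calls among all called probes was 17.7% and 44.3% for the strains in Ter119+ cells, against 46.6%. D2 minus B6 in Gr1+ cells had 2 calls without background correction, with the series matrix, without a detection filter, with probes averaged per gene, with only the arrays compared, without 2 arrays that stood apart and without 3. It had 0 with detection on every array compared, as had LSK cells. That filter leaves out the Psmb5 probe, detected on 1 of 3 D2 Gr1+ and 2 of 3 D2 LSK arrays. LSK cells had 3 calls without 3 arrays. The strain calls in Ter119+ cells were 6 without a detection filter and 2 with only their own arrays, and those on average 16 without 2 arrays and 19 without 3. Sign changes were Psmc5 on average (0.0165 with 1 probe per gene, which is another probe), Psmd9 on average (0.225 with the added scaling), Psme1 in progenitors minus LSK cells (0.143 and 0.12 with 75th percentile scaling) and Psme1 in Ter119+ minus Gr1+ cells (0.0517 with 1 probe per gene, again another probe). The cause of the other changes was not tested. With the replicate block the counts were 1, 1, 1, 10 and 8 for the strains in LSK cells, progenitors, Gr1+ cells, Ter119+ cells and on average, 38, 41, 36 and 29 for the cell types, and 0 for the F test, and Psmc3 was the averaged call lost. Signals near background limit the dim probes of Psmd7, Psmd8, Psmd11, Psmd14, Psmd5, Psmd9 and Psmg2.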
